A study of Mus musculus with 9 samples.

Results

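The genes described here are 37 genes of DNA crosslink repair and the DNA damage checkpoint, taken by symbol: the Fanconi anemia genes, the homologous recombination genes, the translesion polymerases and the checkpoint kinases with their close partners. All 37 were found among the 55385 Ensembl gene IDs of the kidney libraries, and 20 of them reached 1 FPKM in at least 3 of the 9 libraries. FPKM counts fragments relative to transcript length and to the mapped total. Kidneys of C57BL/6 mice were sequenced in bulk in 3 groups with 3 biological repeats each. The Cis3d group was taken 3 days and the Cis7d group 7 days after intraperitoneal cisplatin at 20 mg/kg. The sham group (NS) received an equal volume of saline, and no day after saline is given in the labels. Age and sex are not given either, and no transgene or mutation is named in any group.

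Cisplatin binds DNA bases and links them within a strand or across the strands. A crosslink across the strands stops a replication fork, and the Fanconi core complex then attaches ubiquitin to the FANCD2 and FANCI pair. Nucleases unhook the crosslink, translesion polymerases copy past the remaining damage and homologous recombination restores the broken strand. The kinases ATM and ATR with their targets CHK1 and CHK2 halt the cell cycle meanwhile. In the kidney, cisplatin is taken up and concentrated by proximal tubule cells, most of which are not dividing.

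FPKM summed to between 421810 and 509537 per library. Read depth is unknown, so no counting interval is given. The labels were checked on Cdkn1a, the p53 target that encodes p21, which was at 262.56, 295.84 and 287.95 FPKM on day 3, 5.44, 9.11 and 3 on day 7, and 12.21, 3.8 and 5.64 in sham. Havcr1 and Lcn2, markers of tubule injury, were higher on day 3 than in sham as well (log2 fold changes 4.48 and 6.71). The median log2 fold change of all 13718 tested genes was 0.25 for day 3 against sham, 0.06 for day 7 against sham and -0.16 for day 7 against day 3. Median-of-ratios scaling brought these medians to 0.03, -0.02 and -0.02, and it moved the day 3 calls over all genes from 5389 higher and 2825 lower to 4083 higher and 3951 lower. On day 7 against sham it gave 2245 higher and 2227 lower, where the deposited scale gave 2646 and 1429, and between the times 3742 and 3744, where that scale gave 2977 and 4626. Cell type markers moved with the groups. Of 10 proximal tubule markers all 10 were lower on day 3 than in sham, with a summed level of 2501 to 16727 FPKM on day 3, 18873 to 28867 on day 7 and 29820 to 37768 in sham, and day 3 library 1 was the lowest. Of 8 neutrophil markers 3 were tested and all 3 were higher on day 3, with sums of 24.9 to 93.7 FPKM on day 3, 4.22 to 21.9 on day 7 and 2.67 to 13.2 in sham. Of 8 loop and distal tubule markers 6 were lower on day 3 (median -2.85), of 6 fibroblast markers 2 were higher (median 0.85), and of 6 endothelial markers 2 were lower. Of 6 tested macrophage markers 4 were lower on day 3 and 1 was higher, with a median of -1.12 and a largest rise of 4.21. All 8 macrophage markers summed to 129.8 to 195.6 FPKM on day 3, 42.1 to 119.1 on day 7 and 77.4 to 86.85 in sham. None of 9 lymphocyte markers was tested. They summed to 1.09 to 2.31 FPKM on day 3, 1.53 to 3.78 on day 7 and 1.56 to 3.44 in sham, and Cd3e stayed at or below 0.18 FPKM in each library. The part of these shifts in the changes below was not tested, and in bulk tissue fewer cells of a type and less RNA per cell cannot be told apart.

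The 37 members summed to 90.85, 75.61 and 73.67 FPKM on day 3, 60.9, 71.83 and 55.58 on day 7, and 52.84, 48.18 and 41.91 in sham, and the 3 groups do not overlap. Members at 1 FPKM or more numbered 18 to 20 on day 3, 18 to 20 on day 7 and 12 to 18 in sham. All genes at 1 FPKM or more numbered 12934 to 13183 on day 3, 12090 to 12839 on day 7 and 11647 to 12327 in sham. Sham 3 had the fewest of both.

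On day 3 the 4 tested members of translesion synthesis (Polk, Rev1, Polh and Rev3l), the 3 of strand resection (Rad50, Rbbp8 and Nbn) and the pair Usp1 and Wdr48 were higher than in sham. None of the 5 tested members of the Fanconi core complex was called higher, and the genes for FANCD2, FANCI, BRCA1 and BRCA2 stayed below 1 FPKM in each library. Of the 20 tested members 10 were higher and 2 lower (limma, adjusted p under 0.05, over all tested genes), where 39.3% of all tested genes were higher and 20.6% lower. Separation of the groups, with no overlap, was found for 11 tested members higher and 1 lower, against 42.1% and 21.8% of all tested genes. The median log2 fold change of the tested members was 0.45, against 0.25 for all tested genes, and 0.24 against 0.03 under median-of-ratios scaling. That scaling called 8 members higher and 3 lower, and 4083 and 3951 of all 13718 tested genes. Of the 11 members called on day 3 and averaging at least 1 FPKM in a group, 8 kept their call in each alternative that could test them: Polk, Usp1, Rev1, Rad50, Rbbp8, Polh, Rev3l and Wdr48. Each of these 8 had no overlap between day 3 and sham.

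On day 7 the same resection genes, Usp1 and 3 polymerase genes were still above sham, by less than 2-fold on the log2(FPKM + 1) scale. The ratio of mean FPKM on day 7 to sham was 2.32 for Rev3l, 2.30 for Rbbp8, 2.12 for Usp1 and 2.07 for Polk. It was 1.95 for Polh, 1.82 for Rad50 and 1.67 for Nbn. Of the 20 tested members 7 were higher (Usp1, Rbbp8, Nbn, Polk, Rev3l, Rad50 and Polh) and 2 lower (Fance and Mus81), where 19.3% of all tested genes were higher and 10.4% lower. Of these 9 calls, 0 held in each alternative that could test them. The groups did not overlap for 10 members higher and 2 lower, against 29.5% and 19.1% of all tested genes. The members' median was 0.27, against 0.06 for all. When a trend with GC content and transcript length was removed from each library, 1 member stayed higher (Usp1) and 0 stayed lower, and all tested genes called fell to 584 higher and 272 lower. The count of 7 also fell to 3 without sham 2, and to 4 without day 7 library 1 or library 2. Over all tested genes the higher calls fell as well, from 2646 to 1696, 1879 and 1693 in that order. The median-of-ratios scaling left the members' count at 7, with 2245 of all tested genes higher.

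Between the times, 6 tested members were lower on day 7 than on day 3 (Polk, Xrcc3, Rev1, Fance, Wdr48 and Usp1) and 2 were higher (Fancl and Fancc). Over all tested genes 33.7% were lower and 21.7% higher, so the 30.0% of members that were lower is near the background. The times did not overlap for 2 members higher and 7 lower, against 25.2% and 39.2%. The members' median was -0.17, against -0.16 for all. Polk, Rev1, Wdr48 and Fancl kept this call in each alternative, and Xrcc3, Fance, Usp1 and Fancc lost it in at least 1.

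**Figure D1:**
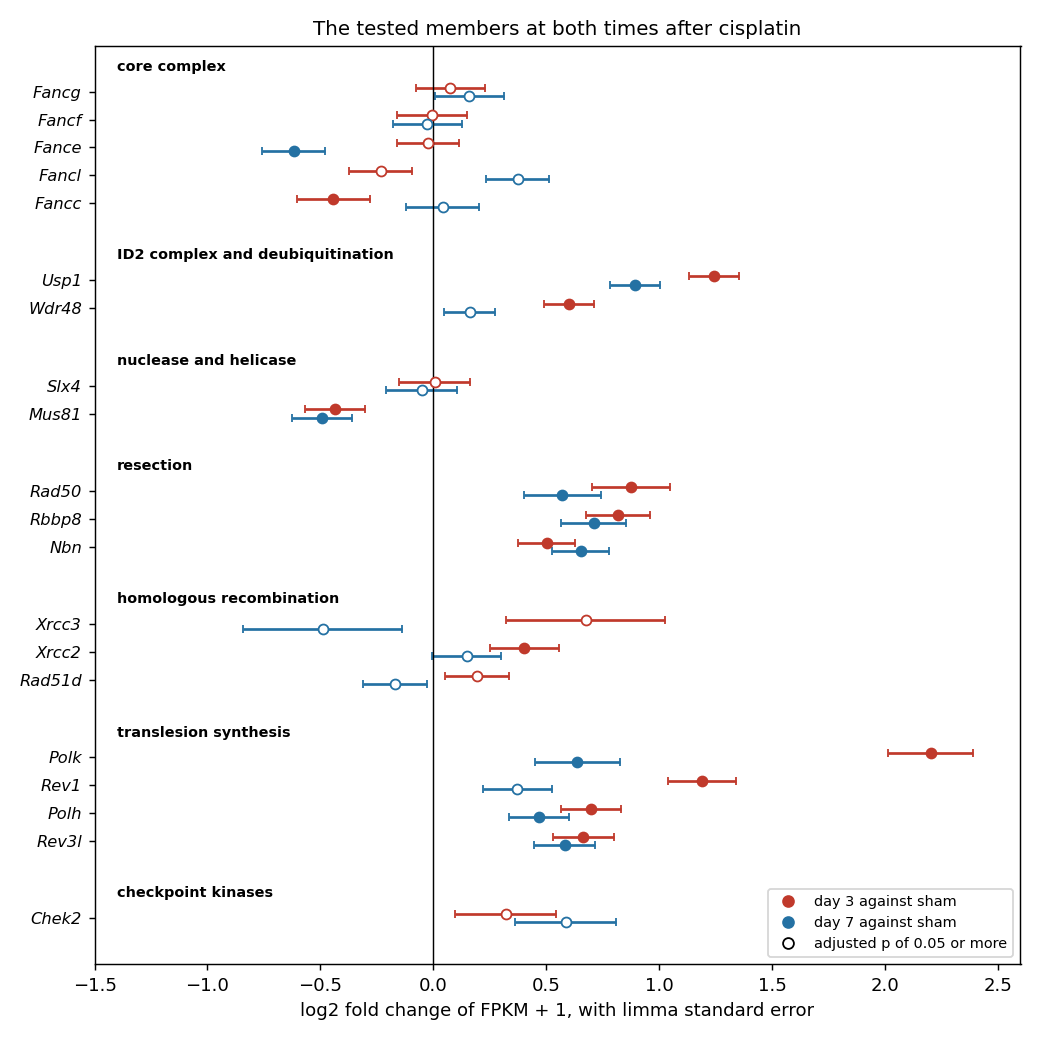
Log2 fold change of FPKM + 1 with its limma standard error for the 20 tested members, grouped by role, for day 3 against sham (red) and day 7 against sham (blue). Open circles have an adjusted p of 0.05 or more. The translesion and resection genes lie to the right of 0 at both times, Polk is at 2.20 on day 3 and 0.64 on day 7, and the core complex genes lie around 0 on day 3.

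**Figure D2:**
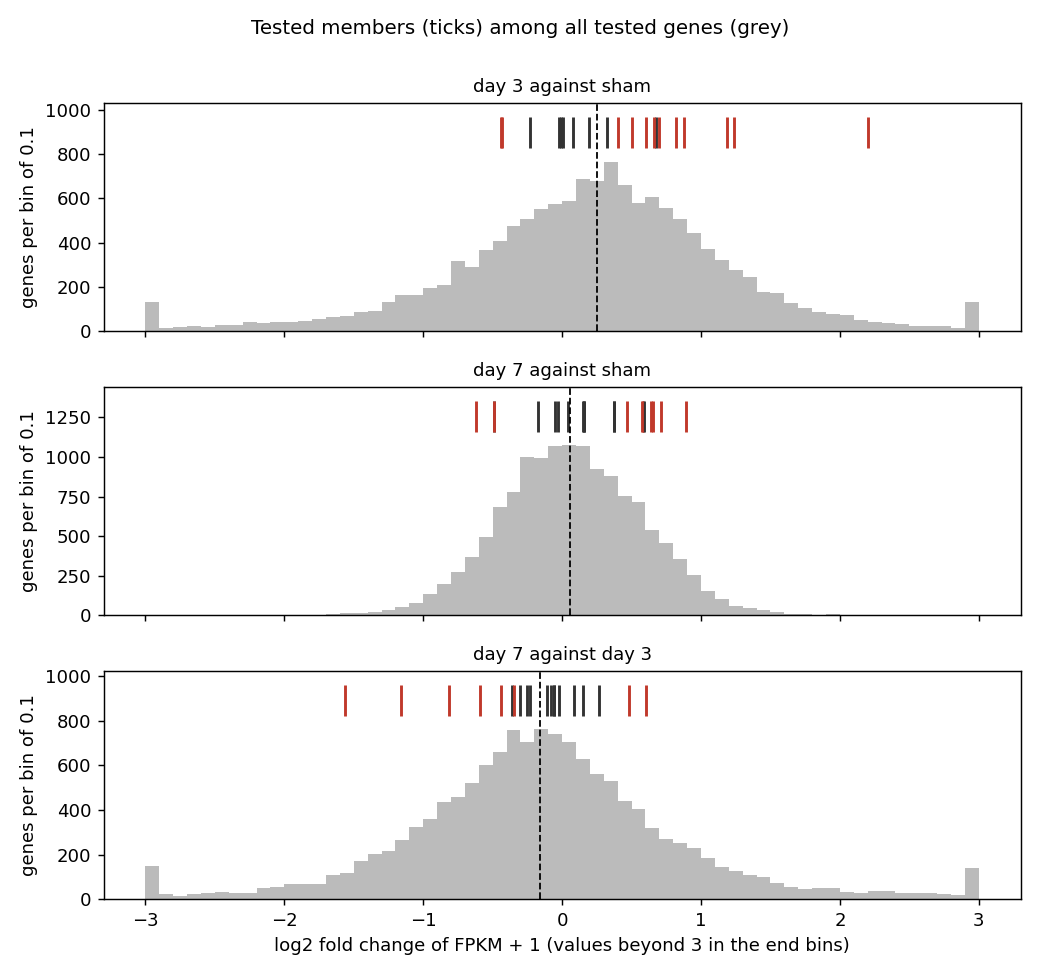
Histograms of the log2 fold changes of all 13718 tested genes (grey), with the 20 tested members as ticks above them, red where the adjusted p is under 0.05. The dashed line is the median of all genes, at 0.25, 0.06 and -0.16 from top to bottom. Values beyond 3 are placed in the end bins. The members spread over the middle of each histogram and Polk stands apart from the other members on day 3.

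The translesion polymerase members had the highest median change of the roles on day 3 (0.94, with 0.25 over all tested genes). Of these members 4 of the 4 tested were higher, where 39.3% of all tested genes were. Translesion polymerases insert bases opposite damage that stops the replicative polymerases. Polk (chromosome 13, 96480690 to 96542579, GRCm38), which encodes polymerase kappa, was at 10.11, 7.24 and 7.88 FPKM on day 3, 2.02, 2.75 and 1.78 on day 7, and 1.34, 0.63 and 1.19 in sham. The 3 groups do not overlap, with day 3 highest and sham lowest. Polk rose by 2.20 ± 0.19 on the log2 scale on day 3 (SE, limma adjusted p = 2.89e-05) and was 0.64 ± 0.19 above sham on day 7 (adjusted p = 0.0328), a call lost in 6 of 20 alternatives (adjusted p 0.0262 to 0.733). Between the times its difference was -1.56 ± 0.19 (adjusted p = 0.000182). Polk also belongs to the list of 20 p53 targets and is counted in it. Of these, 18 (90%) were higher on day 3 and 5 (25%) on day 7, against 39.3% and 19.3% of all tested genes. On day 3, 0 of the list were lower, and on day 7, 2 were.

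Rev1 (chromosome 1, 38052786 to 38129801) encodes a deoxycytidyl transferase that also holds the other translesion polymerases together. It was at 8.07, 5.95 and 5.45 FPKM on day 3, 3.31, 3.49 and 2.84 on day 7, and 2.44, 2.42 and 1.91 in sham. Day 3 stands above both other groups and the day 7 libraries lie just above sham. Rev1 rose by 1.19 ± 0.15 on day 3 (adjusted p = 0.000209). On day 7 it was 0.37 ± 0.15 above sham (adjusted p = 0.0953, not called), and against day 3 it stood at -0.82 ± 0.15 (adjusted p = 0.00183). Rev1 shares 2794 bases of its locus with Eif5b on the opposite strand, whose mean was 13.4 FPKM on day 3, 10.4 on day 7 and 5.95 in sham. The library kit keeps the strand, but the strand setting used in counting is not given, so reads from the shared bases could not be told apart.

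Rev3l, the catalytic subunit of polymerase zeta, and Polh, which encodes polymerase eta, rose less. Rev3l was at 1.96, 1.42 and 1.26 FPKM on day 3, 1.24, 1.58 and 1.36 on day 7, and 0.75, 0.49 and 0.56 in sham. Polh was at 2.08, 1.37 and 1.84 FPKM on day 3, 1.27, 1.64 and 1.14 on day 7, and 0.64, 0.68 and 0.76 in sham. In both genes the day 3 and day 7 libraries overlap and all 6 lie above sham. On day 3 Rev3l rose by 0.66 ± 0.13 (adjusted p = 0.00264) and Polh by 0.70 ± 0.13 (adjusted p = 0.00194). On day 7 Rev3l stood at 0.58 ± 0.13 (adjusted p = 0.0136), and lost that call without sham 2 or once the GC content and length trend was removed (-0.07). Polh stood at 0.47 ± 0.13 on day 7 (adjusted p = 0.0301), a call that held in 9 of 19 alternatives (adjusted p 0.0205 to 0.212). Neither was called between day 7 and day 3 (adjusted p = 0.629 and 0.173). Poln, a further polymerase gene, was at or below 0.03 FPKM in each library. The 5 polymerase genes summed to 16.0 to 22.2 FPKM on day 3, 7.12 to 9.46 on day 7 and 4.23 to 5.20 in sham.

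The promoters of 3 of these polymerase genes are shown because the genes rose together on day 3. A promoter window of Rad51c is shown because this gene had the lowest ratio of day 3 to sham among the members. Each is the RefSeq window from 250 bases before to 50 after a gene start, 300 bases on GRCm38.p6, written in the direction of the gene. Capitals mark the letters found for the motifs named after them.
Polk, chr13:96542530-96542829, minus strand: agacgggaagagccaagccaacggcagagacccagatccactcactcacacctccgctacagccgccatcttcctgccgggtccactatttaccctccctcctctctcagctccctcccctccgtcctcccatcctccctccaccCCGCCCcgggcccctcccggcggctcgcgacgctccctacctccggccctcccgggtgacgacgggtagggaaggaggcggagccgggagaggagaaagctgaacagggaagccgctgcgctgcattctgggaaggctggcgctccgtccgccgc
Rev1, chr1:38129617-38129916, minus strand: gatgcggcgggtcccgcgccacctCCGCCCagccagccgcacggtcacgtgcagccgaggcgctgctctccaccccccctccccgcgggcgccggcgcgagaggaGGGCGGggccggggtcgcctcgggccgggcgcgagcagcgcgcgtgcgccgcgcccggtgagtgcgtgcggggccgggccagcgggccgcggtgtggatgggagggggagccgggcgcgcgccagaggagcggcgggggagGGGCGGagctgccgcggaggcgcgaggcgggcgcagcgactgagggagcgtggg
Polh, chr17:46202592-46202891, minus strand: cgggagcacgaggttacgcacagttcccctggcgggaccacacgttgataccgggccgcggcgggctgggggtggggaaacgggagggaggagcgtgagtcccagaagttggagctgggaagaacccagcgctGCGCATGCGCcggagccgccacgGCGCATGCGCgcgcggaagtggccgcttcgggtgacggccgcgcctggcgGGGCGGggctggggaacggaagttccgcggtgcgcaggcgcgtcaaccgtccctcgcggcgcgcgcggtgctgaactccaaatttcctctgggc
Rad51c, chr11:87404905-87405204, minus strand: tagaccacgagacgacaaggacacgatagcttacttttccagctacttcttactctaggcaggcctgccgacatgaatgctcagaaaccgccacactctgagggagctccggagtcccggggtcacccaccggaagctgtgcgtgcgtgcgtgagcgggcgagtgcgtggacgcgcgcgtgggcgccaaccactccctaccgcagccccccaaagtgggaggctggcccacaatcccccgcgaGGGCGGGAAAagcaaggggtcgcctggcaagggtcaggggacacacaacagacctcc
Windows were present for 29 of the 37 members, 31 in all. The letters TTTCCCGC or TTTGGCGC, which E2F factors bind, were in 4 of these 31 windows (12.9%) and in 1.56% of all 32851 RefSeq promoter windows, counting both strands. They are in the printed Rad51c window and not in the other window of that gene. None of the 5 windows of members higher on day 3 holds them. Those 5 are both Polk windows and those of Rev1, Polh and Wdr48. The other members higher on day 3 have no window. CCAAT was in 16 of the 31 (51.6%, against 37.4% of all), again in none of those 5. The GC box GGGCGG was in 19 of the 31 (61.3%, against 35.7%) and in 4 of those 5. The NRF1 motif was in 1 of the 31 (3.23%, against 0.971%), the Polh window, where it occurs at 2 places. The CHR letters TTTGAA were in 1 of the 31 (3.23%, against 17.9%). The p53 half-site was in 4 of the 31 (12.9%, against 8.36%). One of these is the second window of Polk, which is not printed and starts inside the locus. In the printed Rad51c window the GC box and the E2F letters overlap.

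**Figure D3:**
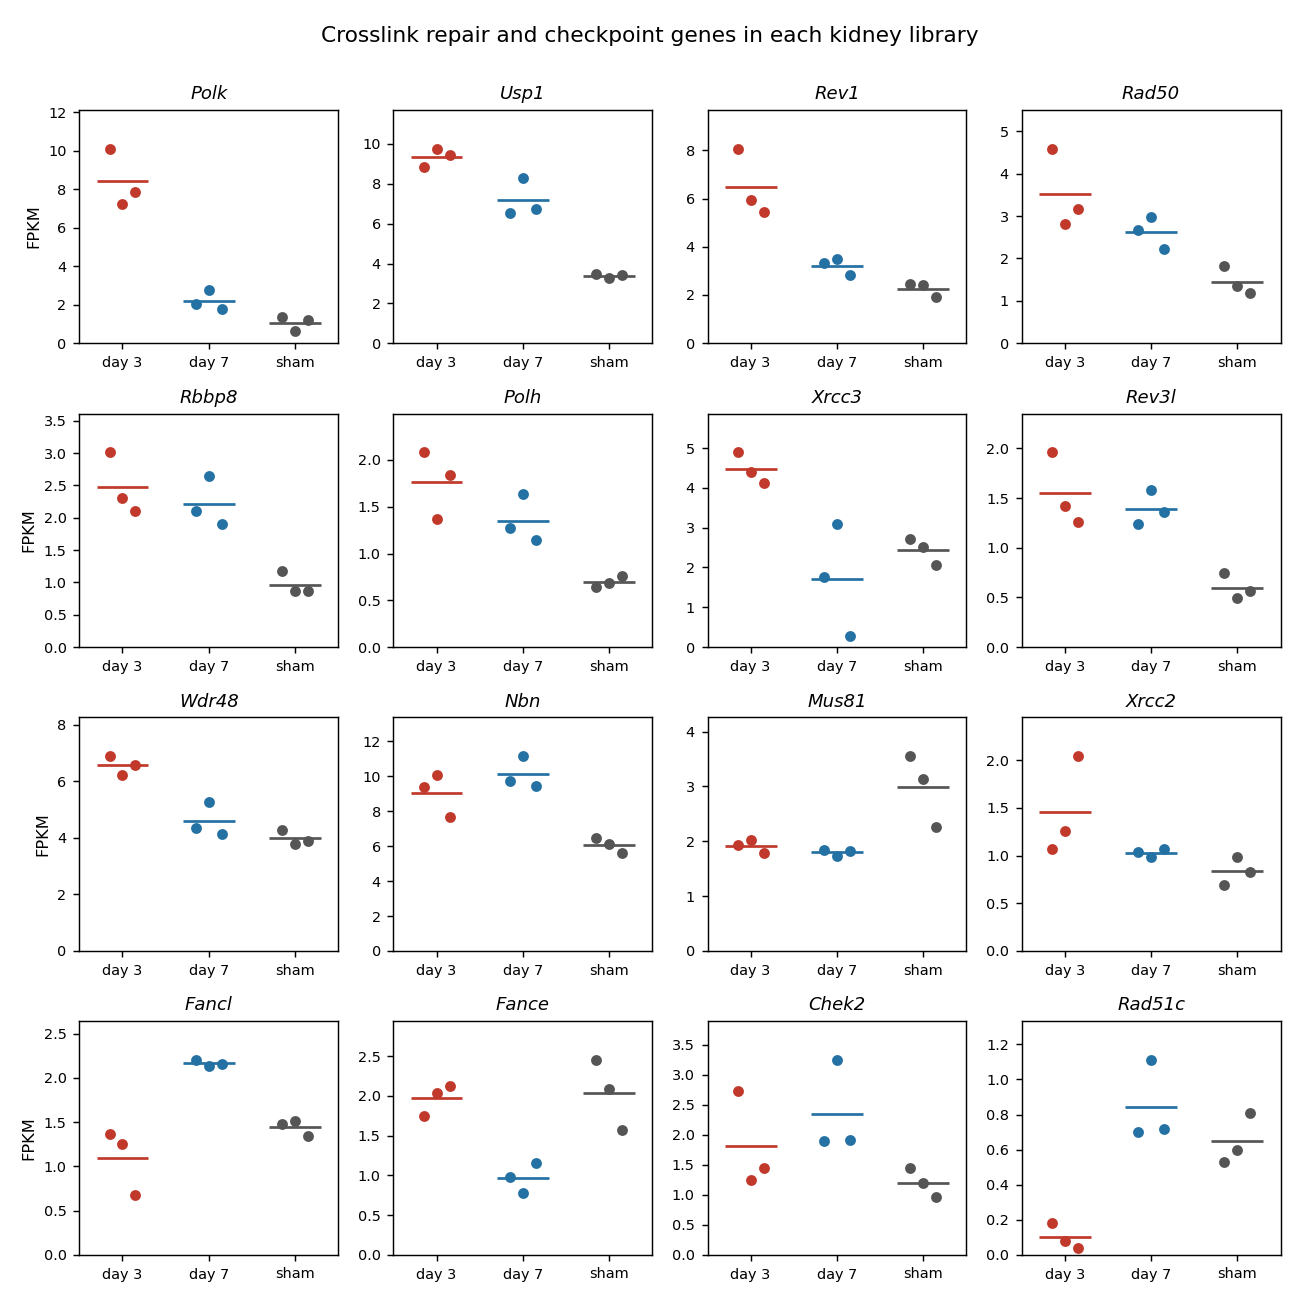
FPKM in each of the 9 libraries (points) with the group mean (bar) for the 14 members that were called in any comparison and averaged at least 1 FPKM in a group, and for Chek2 and Rad51c. Each panel has its own axis from 0. Polk, Usp1, Rev1, Rad50, Rbbp8, Polh, Rev3l and Wdr48 show day 3 above sham with no overlap, and Rad51c shows day 3 below sham.

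All 3 members of strand resection were higher at both times, where 39.3% of all tested genes were higher on day 3 and 19.3% on day 7. NBN and RAD50 belong to the MRN complex that recognises DNA ends, and RBBP8, also known as CtIP, starts the trimming of the ends. Rad50 (chromosome 11, 53649519 to 53707319) was at 4.59, 2.82 and 3.17 FPKM on day 3, 2.68, 2.98 and 2.23 on day 7, and 1.81, 1.34 and 1.19 in sham. Rbbp8 was at 3.01, 2.3 and 2.11 FPKM on day 3, 2.11, 2.64 and 1.9 on day 7, and 1.17, 0.86 and 0.86 in sham. In both, the day 3 and day 7 libraries overlap each other and none reaches down to sham. Rad50 rose by 0.88 ± 0.17 on day 3 (adjusted p = 0.00216) and Rbbp8 by 0.82 ± 0.14 (adjusted p = 0.00117). On day 7 they stood at 0.57 ± 0.17 (adjusted p = 0.0355) and 0.71 ± 0.14 (adjusted p = 0.00787). The day 7 call of Rad50 held in 11 of 19 alternatives (adjusted p 0.0153 to 0.608). An antisense RNA that shares 2365 bases with Rbbp8 averaged 1.98 FPKM on day 3, 1.01 on day 7 and 1.09 in sham.

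Nbn (chromosome 4, 15957925 to 15992589) was the most abundant member in sham. It was at 9.39, 10.1 and 7.68 FPKM on day 3, 9.76, 11.15 and 9.47 on day 7, and 6.5, 6.14 and 5.59 in sham. Day 7 was the higher of the 2 times on average, 10.1 ± 0.898 against 9.06 ± 1.24 FPKM (SD, n = 3 each), and those libraries overlap. Nbn stood at 0.50 ± 0.13 on day 3 (adjusted p = 0.00781) and at 0.65 ± 0.13 on day 7 (adjusted p = 0.00652). Its day 3 call did not hold with median-of-ratios or quantile scaling (adjusted p 0.00483 to 0.0820 over 20 alternatives). Without the GC content and length trend, the day 7 values of Rad50, Rbbp8 and Nbn came to 0.16, 0.13 and 0.37, and none was called.

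The FANCD2 and FANCI pair was barely detected while the enzyme that removes its ubiquitin rose. Fancd2 was at 0.05, 0.02 and 0.03 FPKM on day 3, 0.1, 0.24 and 0.04 on day 7, and 0.11, 0.05 and 0.02 in sham. Fanci was at 0.03, 0.06 and 0.23 FPKM on day 3, 0.02, 0.49 and 0.15 on day 7, and 0.02, 0.23 and 0.19 in sham. The groups overlap in both genes and day 7 library 2 is the highest in each. Usp1 (chromosome 4, 98923810 to 98935543), the deubiquitinase, was at 8.86, 9.77 and 9.44 FPKM on day 3, 6.55, 8.27 and 6.72 on day 7, and 3.46, 3.26 and 3.42 in sham. The 3 groups are separate, in that order. Usp1 rose by 1.24 ± 0.11 on day 3 (adjusted p = 3.61e-05) and by 0.90 ± 0.11 on day 7 (adjusted p = 0.00170), the only day 7 call among the members that held without the GC content and length trend. With the trend removed together with a replicate block it was lost (adjusted p 0.00111 to 0.0520 over 20 alternatives).

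Wdr48 (chromosome 9, 119894878 to 119926587), the partner that activates USP1, was at 6.89, 6.23 and 6.59 FPKM on day 3, 4.37, 5.27 and 4.15 on day 7, and 4.29, 3.78 and 3.91 in sham. Day 3 stands apart and day 7 overlaps sham. Wdr48 rose by 0.60 ± 0.11 on day 3 (adjusted p = 0.00162), was at 0.16 ± 0.11 on day 7 (adjusted p = 0.309) and against day 3 stood at -0.44 ± 0.11 (adjusted p = 0.00908). Its locus shares 24972 bases with the macrophage gene Cx3cr1 on the opposite strand, which averaged 0.123 FPKM on day 3, 1.503 on day 7 and 1.207 in sham.

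The core complex of the pathway carries the ubiquitin ligase FANCL, and its genes among the members showed no common change. Of its 9 genes here, with the conjugating enzyme gene Ube2t counted in, 5 were tested. Over all tested genes 39.3% were higher and 20.6% lower on day 3. Of the 5, none was higher and 1 was lower, and this 20% is near the background. That gene, Fancc, named after its values were seen, was at 0.5, 0.26 and 0.36 FPKM on day 3, 0.95, 1.11 and 0.71 on day 7, and 1.06, 1.1 and 0.49 in sham, so day 3 and sham overlap (-0.44 ± 0.16, adjusted p = 0.0408). That call was lost without the GC content and length trend (-0.28, adjusted p = 0.172) and without the filter (adjusted p = 0.0790). Against day 3 Fancc was higher on day 7 by 0.48 ± 0.16 (adjusted p = 0.0309), a call also lost without the filter (adjusted p = 0.0611). The median of the 5 on day 3 was -0.02, with -0.22 under median-of-ratios scaling and -0.30 under quantile normalization. Without the GC content and length trend this median was 0.18, so its sign depends on that trend. Fancf and Fancg, 2 scaffold parts of the complex, ranged from 0.97 to 1.88 FPKM over all 9 libraries and were not called in any comparison. Faap20 encodes a small subunit of the complex and is not among the members. It was above sham on day 3 (0.73 ± 0.13, limma adjusted p = 0.00160) and below it on day 7 (-0.46 ± 0.13, adjusted p = 0.0330).

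Fancl (chromosome 11, 26386135 to 26471876) was at 1.37, 1.25 and 0.68 FPKM on day 3, 2.2, 2.13 and 2.16 on day 7, and 1.48, 1.51 and 1.34 in sham. The 3 day 7 libraries are the highest and lie close together. Fancl was higher on day 7 than on day 3 by 0.61 ± 0.14 (adjusted p = 0.00563), while neither time was called against sham (adjusted p = 0.177 on day 3 and 0.0742 on day 7). On day 3 it was called lower than sham in 4 of 19 alternatives, among them both other scalings (adjusted p 0.0119 to 0.564). Fance (chromosome 17, 28313519 to 28326572), which links the complex to FANCD2, was at 1.75, 2.04 and 2.12 FPKM on day 3, 0.98, 0.78 and 1.15 on day 7, and 2.45, 2.09 and 1.57 in sham. Day 7 is lowest and does not overlap the others. It stood at -0.62 ± 0.14 on day 7 against sham (adjusted p = 0.0121) and at -0.59 ± 0.14 against day 3 (adjusted p = 0.00612), and both calls were lost without the GC content and length trend. Its transcript has a GC content of 61.4%, the highest among the members, against a median of 49.8% for all tested genes.

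Fanca, which encodes a subunit of the core, was below the filter at 0.8, 0.6 and 0.57 FPKM on day 3, 0.95, 0.58 and 0.36 on day 7, and 1.33, 0.77 and 0.34 in sham. The sham libraries alone span the values of both other groups. Fancm, a DNA translocase, and Fancb stayed between 0.17 and 0.79 FPKM in all libraries. Ube2t was at 0.56, 0.41 and 0.47 FPKM on day 3, 0.11, 0.34 and 0.08 on day 7, and 0.04, 0.21 and 0.1 in sham, with day 3 above both other groups.

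Of the 3 members that form or hold nucleases, Slx4 and Mus81 were tested and Eme1 was not. Neither Slx4 nor Mus81 was called higher than sham, where 39.3% of all tested genes were on day 3 and 19.3% on day 7. Slx4, a scaffold for nucleases, was at 5.6, 4.4 and 3.49 FPKM on day 3, 4.71, 4.31 and 3.68 on day 7, and 4.84, 4.32 and 4.09 in sham, with the groups overlapping (0.01 ± 0.16 on day 3, adjusted p = 0.977). Mus81 (chromosome 19, 5482345 to 5488402) encodes a nuclease that cuts branched DNA. It was at 1.94, 2.03 and 1.79 FPKM on day 3, 1.85, 1.74 and 1.83 on day 7, and 3.55, 3.13 and 2.27 in sham. Both times lie below sham, and sham has the wider spread. Mus81 stood at -0.44 ± 0.13 on day 3 (adjusted p = 0.0199) and -0.49 ± 0.13 on day 7 (adjusted p = 0.0246). The day 3 call held in 13 of 19 alternatives (adjusted p 0.00114 to 0.333) and the day 7 call in 11 of 19 (adjusted p 0.00693 to 0.608), and both were lost without the GC content and length trend. Leaving out sham 1 or sham 2 also ended both calls. Its partner Eme1 and the helicase genes Blm and Brip1 were at or below 0.39 FPKM in each library.

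Among the homologous recombination genes, which bring a repair template to the broken strand, 3 of 7 members were tested. Their day 3 values ran from 0.19 to 0.67 with 1 called higher (Xrcc2). That is 33.3% of the 3, against 39.3% of all tested genes. Xrcc3 (chromosome 12, 111803192 to 111813873) was at 4.89, 4.39 and 4.13 FPKM on day 3, 1.77, 3.09 and 0.28 on day 7, and 2.72, 2.51 and 2.07 in sham. Day 3 does not overlap sham, and day 7 library 3 is far below the other day 7 libraries. Its difference on day 3, 0.67 ± 0.35, was not called (adjusted p = 0.128) in the fit that shares the spread of all groups. It was called in 4 of 19 alternatives (adjusted p 0.00542 to 0.354), which were those without day 7 library 3, with the 6 libraries of the comparison alone, and without the GC content and length trend, with or without a replicate block. On day 7 against day 3 Xrcc3 stood at -1.16 ± 0.35 (adjusted p = 0.0206), and that call was lost without day 3 library 1 or day 3 library 2 (adjusted p 0.00367 to 0.0549). Without day 7 library 3 the difference was -0.70 and was still called. It shares 4653 bases with Klc1 on the opposite strand, which averaged 12.5 FPKM on day 3, 6.53 on day 7 and 6.40 in sham.

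Xrcc2 was at 1.07, 1.26 and 2.04 FPKM on day 3, 1.04, 0.98 and 1.07 on day 7, and 0.69, 0.99 and 0.83 in sham. Day 3 library 3 is the highest. Xrcc2 stood at 0.40 ± 0.15 on day 3 (adjusted p = 0.0469) and at 0.24 without that library (adjusted p = 0.140), and the call held in 4 of 19 alternatives (adjusted p 0.0185 to 0.451). Rad51d ranged from 3.63 to 6.2 FPKM over all libraries and was not called at either time. Rad51c (chromosome 11, 87376645 to 87404954) was below the filter and is described after its values were seen. It was at 0.18, 0.08 and 0.04 FPKM on day 3, 0.7, 1.11 and 0.72 on day 7, and 0.53, 0.6 and 0.81 in sham, so day 3 lies below both other groups and those overlap. Fitted with all 32394 genes above 0 FPKM in a library, it stood at -0.58 ± 0.12 on day 3 (adjusted p = 0.00677) and was higher on day 7 than on day 3 by 0.74 ± 0.12 (adjusted p = 0.00234).

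Brca1, whose protein promotes resection, was at 0.36, 0.25 and 0.2 FPKM on day 3, 0.17, 0.37 and 0.2 on day 7, and 0.03, 0.12 and 0.09 in sham. Brca2, whose protein acts after resection in homologous recombination, was at 0.32, 0.25 and 0.3 FPKM on day 3, 0.17, 0.3 and 0.17 on day 7, and 0.24, 0.18 and 0.1 in sham. In both the day 3 libraries lie above sham with no overlap, at levels where values deposited with 2 decimals are coarse. Palb2, which joins the 2 proteins, stayed between 0.12 and 0.3 FPKM.

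The 4 checkpoint kinases were low, and each was higher on day 7 than in sham with no overlap. That separation was found for 16.5% of all genes above 0 FPKM in a library, and for 29.5% of all tested genes. Atm (chromosome 9, 53439149 to 53536740), the kinase that answers double-strand breaks, was at 0.53, 0.31 and 0.37 FPKM on day 3, 0.84, 1 and 0.86 on day 7, and 0.37, 0.31 and 0.34 in sham. Day 7 stands above both other groups, which overlap. Atr, the kinase of stalled forks, was at 1.04, 0.72 and 0.61 FPKM on day 3, 0.84, 0.79 and 0.8 on day 7, and 0.48, 0.42 and 0.39 in sham, so both times lie above sham. Chek1, the target of ATR, was at 0.49, 0.6 and 0.43 FPKM on day 3, 0.21, 0.55 and 0.23 on day 7, and 0.08, 0.14 and 0.11 in sham. Its day 3 and day 7 libraries overlap, and all 6 lie above sham. Chek2 (chromosome 5, 110839979 to 110874145), the target of ATM and the only one of the 4 to be tested, was at 2.72, 1.25 and 1.45 FPKM on day 3, 1.89, 3.24 and 1.91 on day 7, and 1.44, 1.19 and 0.97 in sham. It was not called at either time (0.32 ± 0.22, adjusted p = 0.243 on day 3, and 0.59 ± 0.22, adjusted p = 0.0788 on day 7).

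In the fit without a filter, 4 of the 17 members below the filter were higher on day 3 (Chek1, Blm, Ube2t and Brca1) and 1 lower (Rad51c), of which Blm, Ube2t and Rad51c are named after their values were seen, where 22.3% of all genes in that fit were higher and 8.92% lower. On day 7, 1 was higher than in sham (Atm, 0.50 ± 0.09, adjusted p = 0.0151) and 0 lower, against 6.48% and 3.00% of all genes. Between the times, 3 were higher on day 7 (Atm, Rad51c and Brip1) and 2 lower (Ube2t and Blm), against 10.2% and 19.2%. All genes in that fit include the 13718 tested genes, so these shares are not those of genes below the filter alone. Over all 37 members, tested or not, 18 were higher and 3 lower on day 3 than in sham with no overlap between the groups, where 28.3% and 12.2% of all genes were. On day 7 these numbers were 17 and 2, against 16.5% and 9.65%, and between the times 5 and 9, against 14.4% and 25.9%. Of the tested genes alone, 42.1% and 21.8% were separate in this way on day 3. The shares were 29.5% and 19.1% on day 7, and 25.2% and 39.2% between the times. Fold changes below the filter are small on the log2(FPKM + 1) scale. Chek1 averaged 0.507 ± 0.0862 FPKM on day 3 and 0.110 ± 0.0300 in sham (SD, n = 3 each). Its log2 fold change in the fit without a filter was 0.44 ± 0.10 (limma adjusted p = 0.0114).

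**Figure D4:**
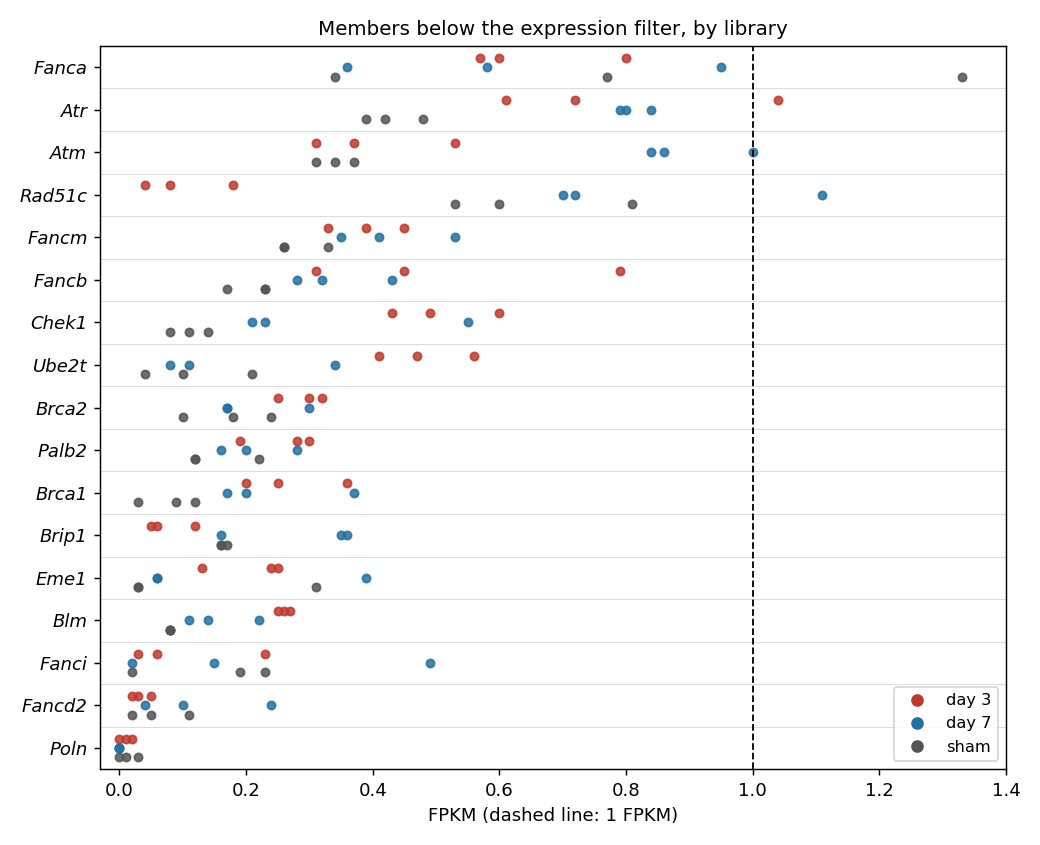
FPKM of the 17 members below the filter in each library, with day 3 in red, day 7 in blue and sham in grey and a dashed line at 1 FPKM. Ube2t and Blm on day 3 lie above both other groups, as does Atm on day 7, Rad51c on day 3 lies below both, and Chek1 lies above sham at both times.

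A list of proliferation genes is set beside these low members. Of 25 genes in that list 15 were tested, with 6 higher on day 3 and 0 lower. These are 40% and 0% of the 15, against 39.3% and 20.6% of all tested genes. The share that was higher is near the background, but the median log2 fold change was 0.55, against 0.25 for all tested genes. Under median-of-ratios scaling these medians were 0.34 and 0.03. Of the 15 genes, 5 were called higher by 2-fold or more on the log2(FPKM + 1) scale, as were 2347 of all 13718 tested genes. All 25 genes summed to 83.9 to 104.2 FPKM on day 3, 40.9 to 76.7 on day 7 and 30.4 to 47.2 in sham. Day 7 library 2 was the highest of its group. Mki67, a marker of dividing cells, was at 0.49, 0.31 and 0.5 FPKM on day 3, 0.5, 2.75 and 0.43 on day 7, and 0.06, 0.4 and 0.17 in sham. Pcna, the sliding clamp on which the translesion polymerases sit, averaged 38.9 FPKM on day 3, 16.0 on day 7 and 11.1 in sham, a rise of 1.73 on the log2 scale on day 3. Whether dividing cells account for any member's change was not tested.

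Other genes of the same pathways, 78 in a list set beside the members, are given beside them. Of these, 61 were tested, and on day 3, 34 were higher and 4 lower, with a median of 0.41. These are 55.7% and 6.56% of the 61, against 39.3% and 20.6% of all tested genes, whose median was 0.25. Ercc1, the partner of the XPF nuclease that unhooks crosslinks, was at 42.3, 38.18 and 37.42 FPKM on day 3, 2.39, 2.83 and 2.3 on day 7, and 3.49, 3.46 and 2.33 in sham. It rose by 3.31 ± 0.14 on day 3 (adjusted p = 1.95e-06), more than any member. Rad18, the ubiquitin ligase that brings translesion polymerases to PCNA, was at 1.85, 1.51 and 1.5 FPKM on day 3, 0.24, 0.45 and 0.2 on day 7, and 0.2, 0.06 and 0.11 in sham (1.22 ± 0.12, adjusted p = 5.69e-05). Tipin, a fork protection factor, rose by 1.18 ± 0.19. Cenpx, a histone-fold partner of FANCM, stood at -1.29 ± 0.37, Babam2, of the BRCA1-A complex, at -1.03 ± 0.26, and the fork remodeler gene Smarcal1 at -0.48 ± 0.11. These 3 were 3 of the 4 that fell.

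On day 7, 13 of the 61 were higher and 5 lower than sham, with a median of 0.13, and 1 and 1 without the GC content and length trend. The shares, 21.3% and 8.2%, are near the 19.3% and 10.4% of all tested genes. The largest called rises were of Hltf (0.78 ± 0.20), Rmi1 (0.72 ± 0.11) and Rpa3 (0.72 ± 0.11), and the largest called falls of H2afx (-0.69 ± 0.20), Zswim7 (-0.68 ± 0.20) and Uimc1 (-0.51 ± 0.11). RPA3 is the small subunit of the protein that coats single strands, and RMI1 belongs to the complex of the BLM helicase. Poli, a further translesion polymerase gene, was not called on either day (-0.33, adjusted p = 0.108 on day 3, and -0.43, adjusted p = 0.0736 on day 7) and is named after its values were seen. Against day 3, 21 were lower on day 7 and 3 higher, which is 34.4% and 4.92%, against 33.7% and 21.7% of all tested genes. Ercc1 stood at -3.52 ± 0.14, H2afx, the histone marked at DNA breaks, at -1.25 ± 0.20, and Faap20, a small subunit of the core complex, at -1.19 ± 0.13. The 3 that were higher on day 7 were Smarcal1 (0.57 ± 0.11), Dna2 (0.51 ± 0.13) and Hus1 (0.41 ± 0.13).

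GC content and transcript length differed between the members called higher on day 3 and the other tested members. The 10 members higher on day 3 had a median GC content of 44.8% in their longest transcripts and the other 10 tested members 53.1%. Of those other 10, 2 were called lower. The median lengths were 4035 and 2573 bases. Over all genes the median GC content was 47.6% in those higher on day 3 and 52.3% in those lower, and the median lengths were 3163 and 2496 bases. Removing the trend left Polk at 1.84, Rev1 at 1.06 and Polh at 0.68 on day 3, all called. Rbbp8 came to 0.43, from 0.82 with the trend, and Rev3l to 0.36, from 0.66, and both were still called. The day 3 calls of Mus81, Xrcc2 and Fancc were lost, and Fancl was called lower (-0.50, adjusted p = 0.0119). On day 7 it left Polk at 0.11, Rbbp8 at 0.13 and Mus81 at -0.11, none called. GC content and length were removed together, so their parts cannot be told apart here. The part of either in each gene's change was not tested beyond this removal.

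**Figure D5:**
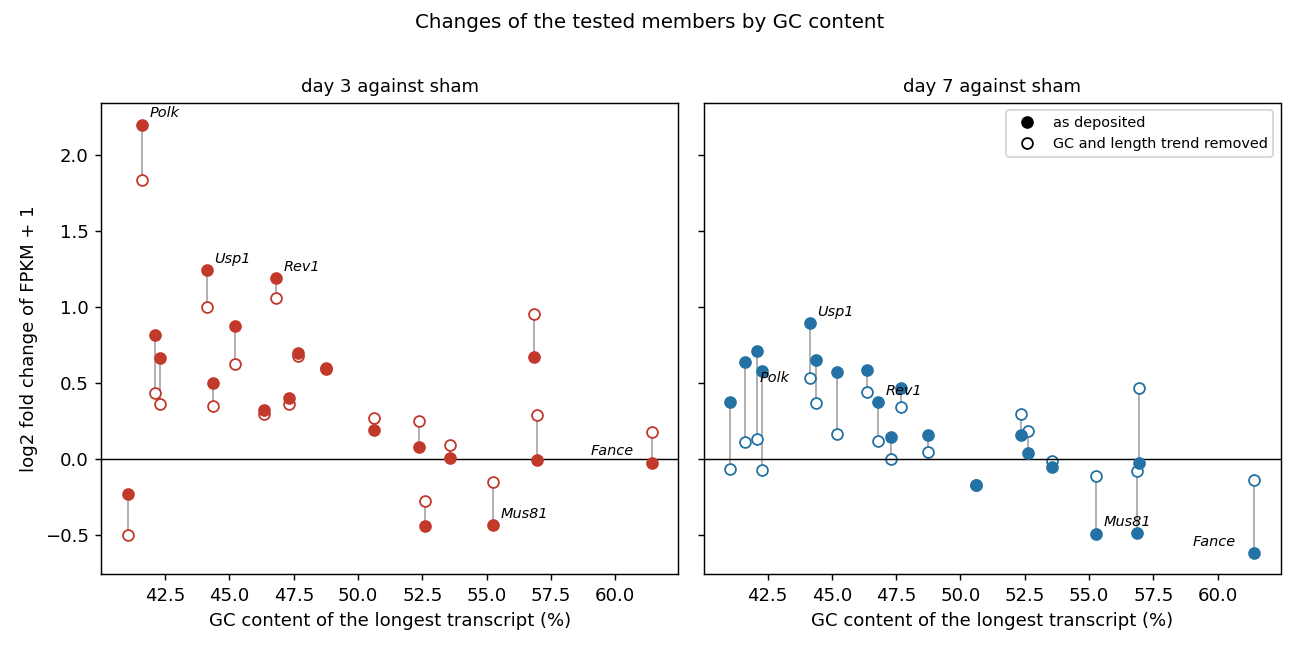
Log2 fold change of FPKM + 1 of the 20 tested members against the GC content of their longest transcript in percent, for day 3 against sham (left) and day 7 against sham (right). Filled circles are values as deposited, open circles are values after removal of the GC content and length trend, and lines join the same gene. On day 3 the open circles of Polk and Rev1 stay above 1, and on day 7 most open circles lie closer to 0 than the filled ones.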

How the data were processed

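RNA was extracted with TRIzol and sequenced after a directional NEB library kit, per the labels' protocols. The authors deposited FPKM for each gene and library, given to 2 decimals. Per the submitters' processing notes, HISAT, StringTie, FastQC 0.10.1 and GRCm38 were used, with no role stated. No source used here gives the annotation release, filters or strand setting.

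Gene IDs were matched to GENCODE M21 (GRCm38). A gene was tested where 3 or more of the 9 libraries reached 1 FPKM, which left 13718. The scale was log2(FPKM + 1), which understates the change of low genes, and fitted with limma 3.58.1 in R 4.3.3 with the 3 groups as the only term, over all 9 libraries, with moderated variances that follow mean expression. All 3 contrasts were tested two-sided, and p-values were adjusted by Benjamini-Hochberg across the 13718 genes, with calls at 0.05. Errors are standard errors from limma, or SD over 3 libraries. Groups follow the sample titles. Nothing says how the repeats were housed or handled, so p-values measure the spread between these samples. The fit was tested on simulated data.

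The members and lists were chosen with earlier results of these data known. They are described by counts and medians, with no test of a list. Values in every library are given for members called in any contrast that averaged 1 FPKM or more in a group, and for 9 core genes. The replicate numbers were not taken to pair the samples. Alternatives were other pseudocounts, filters, scalings, a GC content and length correction (splines with 5 degrees of freedom), robust variance, fewer libraries and a replicate block.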

Additional observations from a re-analysis of the deposited data

Results flagged for a closer look

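The responses at the 2 times differed, by the test of the difference itself (day 7 against sham minus day 3 against sham, which equals day 7 against day 3, since both share the sham libraries), for 7 members described in full. Polk (-1.56), Xrcc3 (-1.16), Rev1 (-0.82), Fance (-0.59), Wdr48 (-0.44) and Usp1 (-0.35) stood lower on day 7, on the log2(FPKM + 1) scale, and Fancl stood higher (0.61). Each had an adjusted p under 0.05 in limma. Day 7 library 3 of Xrcc3, at 0.28 FPKM, lies far below the other libraries of its group, and without it the difference of Xrcc3 was -0.70. Polk, Rev1 and Wdr48 had been above sham on day 3, and Fance had not been called on day 3 (-0.02).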

How the results depend on the processing

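The number of members called on day 3 was 10 higher and 2 lower. A filter at 5 FPKM, under which fewer genes are tested, left 5 and 0, and left 3 higher and 0 lower of the 7 and 2 on day 7, and 0 of the 2 that were higher on day 7 than on day 3. The lower count on day 3 was 1 after removal of the GC content and length trend, with or without the replicate block, and 0 with the 6 libraries of the contrast alone. On day 7 the trend removal gave 1 higher and 0 lower, and 0 and 0 with the replicate block. Without a filter 1 was lower on day 7, and 4 were higher on day 7 than on day 3, as with a filter at 0.5 FPKM. Leaving out each library in turn gave 9 to 10 higher and 0 to 2 lower on day 3, 3 to 9 higher and 1 to 2 lower on day 7, and 1 to 2 higher and 5 to 7 lower for day 7 against day 3. Calls over all genes moved with these settings too. The filter at 5 FPKM called 3125 higher and 1979 lower of 7692 on day 3, and 1675 and 1204 on day 7. Trend removal called 584 higher and 272 lower of 13707 on day 7, and 287 and 156 with the block. Leaving out each library gave 4718 to 5479 higher on day 3 and 1693 to 2992 on day 7.

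For the 78 other pathway genes, with 34 higher and 4 lower on day 3, 13 and 5 on day 7 and 3 higher and 21 lower between the times, a filter at 5 FPKM gave 13 higher on day 3, 4 higher on day 7, and 1 higher and 12 lower between the times. Median-of-ratios scaling gave 22 higher on day 3, 9 lower on day 7 and 7 higher between the times, and quantile normalization gave 21 higher and 10 lower, 9 lower, and 7 higher. Trend removal gave 1 higher and 1 lower on day 7, and 0 and 1 with the replicate block, and no filter gave 2 lower. Leaving out each library gave 28 to 33 higher and 2 to 5 lower on day 3, 8 to 16 and 1 to 6 on day 7, and 2 to 6 higher and 17 to 23 lower between the times. Over all tested genes the deposited scale called 5389 higher on day 3, 1429 lower on day 7 and 2977 higher between the times. Median-of-ratios scaling called 4083, 2227 and 3742 of them, and quantile normalization 4104, 2011 and 3811. The filter at 5 FPKM called 1997 higher and 2976 lower of 7692 between the times.

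Reversals were found only for values that were not called under the alternative. Trend removal, with and without the block, turned Fance on day 3 (0.18), Rev3l, Xrcc2 and Fancl on day 7 (-0.0707, -0.0033 and -0.0646) and Mus81 between the times (0.0345). Median-of-ratios scaling and quantile normalization turned Rbbp8 (0.0179 and 0.0367), Rev3l (0.0259 and 0.05002) and Mus81 (0.0621 and 0.0789) between the times. Leaving out each library gave Fance -0.139 to 0.0737 on day 3, above 0 without sham 1 or day 3 library 1, and Rev3l -0.164 to 0.0309 between the times, above 0 without day 3 library 1. The cause was not tested.

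Same-numbered libraries of different groups had deviations correlated at -0.0543 to 0.238, and libraries with different numbers at -0.28 to 0.115. Of 9 libraries 6 correlated best with one of their own number, a hint of pairing from the data. Since not every same-numbered pair was above 0.1 and the labels name no shared batch, the numbers were not taken to pair the samples. With the replicate block 9 members were higher and 2 lower on day 3 (Xrcc2 lost its call), 6 and 2 on day 7 (Polh lost its call), and 2 higher and 6 lower between the times.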
